A study of Mus musculus with 2 samples.

Results

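The genes described here are the 4 mouse metallothioneins Mt1, Mt2, Mt3 and Mt4, the metal-responsive transcription factor gene Mtf1, and the transporter genes Slc30a1, Slc30a3 and Slc30a10, which are 8 of the 43346 genes with Ensembl identifiers in the deposited tables. They were picked by symbol, with their levels and their difference between samples already known, so levels and differences are given as a description and no test is made of them. All 8 have a row in both samples. The samples were 2 pools of 30 cells, primary Purkinje cells of the cerebellum cut out by laser, from adult male mice of the strain B6CASTF1/J, a C57BL/6 by CAST first-generation cross, aged 14 months. No treatment is listed, both pools carry the same donor identifier, and the labels do not say whether 1 animal or several gave the cells. Both pools form 1 group, so every standard deviation (SD, n = 2) is the spread of 1 pool from the other and may be technical in origin.

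Metallothioneins are small cysteine-rich proteins that bind zinc and copper, and their genes are induced by free zinc. MTF1 senses zinc through its zinc fingers and binds the metal response element, a short DNA word found in several copies beside Mt1 and Mt2. Proteins of the SLC30 family carry zinc out of the cytosol, to the outside or into vesicles, and those of the SLC39 family carry it in; in brain, Mt1 and Mt2 are best known from astrocytes, among them the Bergmann glia that wrap Purkinje cells, and Mt3 is known as a brain form.

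Parts of the annotated first exons of Mt1, Mt2 and Mt3 are shown because they bear on the length used for their levels. Each stretch runs, on the plus strand of GRCm38 (mm10) and inside the first exon of the first-numbered transcript in GENCODE M21, from the last metal response element core to the word TATAAA; both are in capitals. The cores searched were TGCACNC and TGCGCNC, on both strands.
Mt1, chr8:94179187-94179215: TGCGCCCggactcgtccaacgacTATAAA
Mt2, chr8:94172729-94172758: TGCGCTCgacccaatactctccgcTATAAA
Mt3, chr8:94152693-94152718: TGCGCGCccccgcctggggcTATAAA

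The stretches were cut to begin with a core and end with TATAAA, so their shared ends follow from the cut. The last core stood 16 bases before TATAAA in Mt1, 17 in Mt2 and 13 in Mt3. In all, Mt1 held 4 cores before the word, and Mt2 and Mt3 held 3 each. In the first 150 bases of the first-numbered transcripts of 21409 protein-coding genes, 16.6% held at least 1 core, 0.472% held at least 3, and 1.88% held TATAAA. Only 3 transcripts (0.014%) held at least 3 cores together with TATAAA, and they were those of Mt1, Mt2 and Mt3. This combination was chosen after the sequences of these genes had been read. The search also began at the annotated start, so a gene whose model starts after such a word could not be counted. The share therefore depends on where models start and does not measure how rare the combination is among promoters.

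Slc30a1, the plasma membrane zinc exporter, is shown next because its ratio between the pools was the largest of the group. The line gives the 200 bases before its start in RefSeq (GRCm38.p6, chr1:191906581-191906780, plus strand), with its single core, which is read on the opposite strand, in capitals.
Slc30a1: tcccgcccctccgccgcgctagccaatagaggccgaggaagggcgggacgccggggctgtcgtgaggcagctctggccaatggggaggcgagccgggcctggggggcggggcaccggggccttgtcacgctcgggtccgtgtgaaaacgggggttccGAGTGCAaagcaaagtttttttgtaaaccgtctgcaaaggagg

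That core lay 43 to 37 bases before the start. Within 250 bases before the RefSeq starts, Mt2 held 3 cores and Mt1 and Mt4 held 1 each, while Mt3 and Mtf1 held 0. For Mt1, Mt2 and Mt3 these windows end before the first-exon cores described above, which are therefore not in these counts. Slc30a10 held 3, of which 2 overlap as a word that reads alike on both strands, and the 2 windows of Slc30a3 held 0 and 1. Among all 32851 windows of that length, 21.4% held at least 1 core and 1.26% at least 3. Of 26 windows of zinc transporter genes, 11 held at least 1. Those windows belong to 21 genes, some with more than 1 window, and the chosen transporters are among them. A match describes letters and not a bound site.

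The deposited tables give an expected count per gene, which is an estimated number of reads and need not be whole, and TPM, a transcript abundance that is corrected for effective length and set to the same total in each library, so that levels of different genes can be compared. Pool 1 had 31503819 expected counts in all and pool 2 had 28709397. The Purkinje label was checked against its markers, and in each pool 13 of 13 reached a TPM of 1, with 87021 TPM summed in pool 1 against 87720 in pool 2. Bergmann glia and astrocyte markers were there too, 13 of 14 at that level, with 3030 TPM summed in pool 1 against 5239 in pool 2; Gfap, the astrocyte filament gene, had 0.50 and 0.47. Of the others, granule cell, interneuron, oligodendrocyte, microglia and endothelial lists each summed to at most 53.9 TPM in either pool, meningeal and choroid lists to at most 3.10, and the red blood cell list to 2453 in pool 1 against 16.3 in pool 2. In pooled cells, fewer cells of a type and less RNA per cell cannot be told apart.

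Mt1 carried most of the metallothionein RNA and was among the most abundant nuclear messages in the captured material. Mt1 (ENSMUSG00000031765.7, chr8:94179082-94180327) had 11406 TPM in pool 1 against 18939 TPM in pool 2 (15172 ± 5327, SD, n = 2), from 204292 and 292118 expected counts. Among nuclear protein-coding genes it ranked 8 in pool 1 and 4 in pool 2, and the ranks were the same with counts divided by full length. Its reads alone were 0.650% of all gene counts in pool 1 and 1.02% in pool 2.

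Mt3, known from brain as a growth inhibitory factor, came next (ENSMUSG00000031760.8, chr8:94152607-94154146). It had 1186 TPM in pool 1 against 1653 TPM in pool 2 (1420 ± 330, SD, n = 2), from 21147 and 25381 expected counts. Its rank was 73 in pool 1 and 59 in pool 2.

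Mt2, which like Mt1 is expressed in most tissues, was the lowest of the detected metallothioneins (ENSMUSG00000031762.6, chr8:94172664-94173568). It had 471 TPM in pool 1 against 911 TPM in pool 2 (691 ± 312, SD, n = 2), from 8736 and 14565 expected counts. The levels of Mt1, Mt3 and Mt2 did not overlap between genes in these pools, so their order was the same in both.

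Mt4, known from stratified epithelium, had 0 counts in both pools (ENSMUSG00000031757.6, chr8:94137197-94139031). Taking 3 counts as the most that a count of 0 allows, its TPM could be up to 0.253 in pool 1 and 0.294 in pool 2. These limits, like all intervals here, cover counting error only, since the labels mention no molecular identifiers.

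Mtf1 and the transporters were low beside them. Mtf1 (ENSMUSG00000028890.9, chr4:124802104-124849800) had 0.36 TPM in pool 1 against 0.62 TPM in pool 2 (0.490 ± 0.184, SD, n = 2), from 29.26 and 39.58 expected counts. Slc30a1 (ENSMUSG00000037434.7, chr1:191906767-191913247) had 0.29 TPM in pool 1 against 1.07 TPM in pool 2 (0.680 ± 0.552, SD, n = 2), from 61 and 193 expected counts. Their levels overlapped, so neither can be placed above the other.

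Slc30a10, known chiefly as a manganese exporter, had 0.06 TPM in pool 1 against 0.09 TPM in pool 2 (0.0750 ± 0.0212, SD, n = 2), from 13 and 19 expected counts (ENSMUSG00000026614.6, chr1:185454848-185468762). Slc30a3, which loads zinc into synaptic vesicles of forebrain neurons, had 2 counts in pool 1 and 0 in pool 2 (ENSMUSG00000029151.10, chr5:31086106-31108237, minus strand). Its TPM was 0.03 in pool 1, and 0 counts in pool 2 allow up to 0.0454. Both lie far under the level of 1 used here for a detected gene, and Mtf1 lies under it in both pools.

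**Figure D1:**
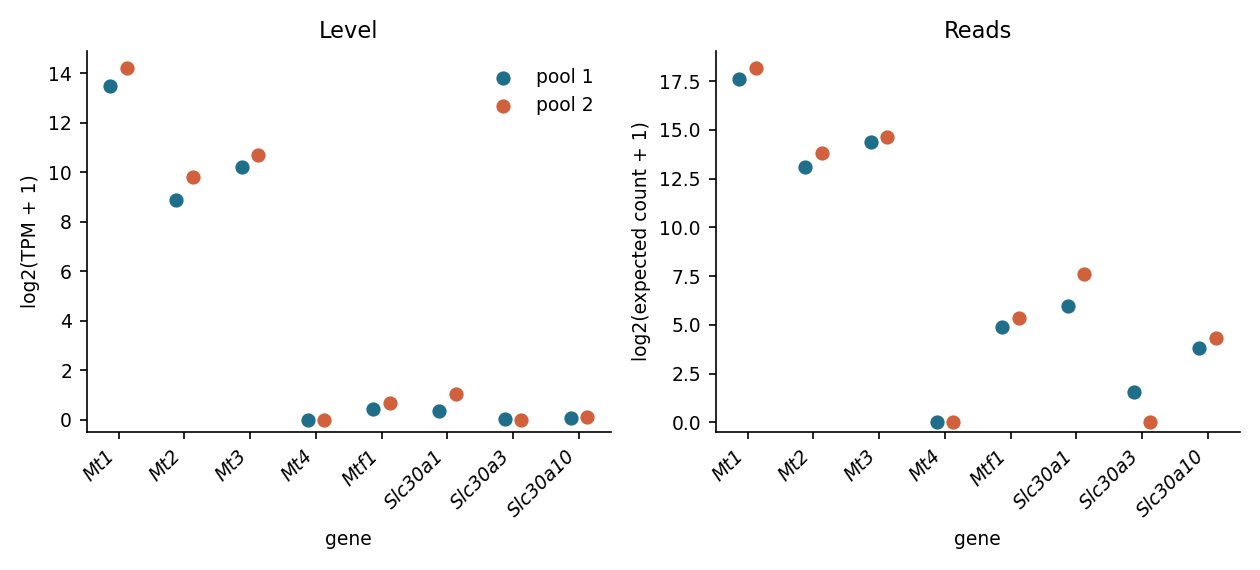
Level as log2(TPM + 1) (left) and depth as log2(expected count + 1) (right) of the 8 genes, with a point for each pool. Mt1, Mt3 and Mt2 stand apart from the other 5 genes, and Mt4 has 0 counts in both pools.

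Of the 8 genes, 3 reached a TPM of 1 in both pools, and they were Mt1, Mt2 and Mt3. The same level was reached by 30.3% of 21461 nuclear protein-coding genes, a figure from which nothing is read here, since the genes were chosen with their levels known.

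The metallothioneins together had 13062 TPM summed in pool 1 against 21503 in pool 2 (17283 ± 5968, SD, n = 2). In expected counts they were 234175, or 0.745% of gene counts (95% exact binomial interval 0.7419 to 0.7479), in pool 1 and 332064, or 1.16% (1.157 to 1.165), in pool 2. The total was higher in pool 2 on both of these scales.

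Of the summed metallothionein TPM, Mt1 had 87.3% in pool 1 and 88.1% in pool 2 (87.7% ± 0.536, SD, n = 2). Mt3 had 9.08% in pool 1 and 7.69% in pool 2 (8.38% ± 0.985). Mt2 had 3.60% and 4.24% (3.92% ± 0.449). Between the pools the share of Mt3 was lower in pool 2 while those of Mt1 and Mt2 were higher there, and since shares are read within a pool they do not depend on scaling between pools.

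In expected counts the shares were nearly the same, and their 95% exact binomial intervals did not meet between pools. Mt1 had 87.2% of the counts in pool 1 (87.10 to 87.37) and 88.0% in pool 2 (87.86 to 88.08), and Mt3 had 9.03% (8.915 to 9.147) and 7.64% (7.553 to 7.734). Mt2 had 3.73% of the counts in pool 1 (3.654 to 3.808) and 4.39% in pool 2 (4.317 to 4.456). Those intervals cover the counting of reads and not the spread between pools of cells.

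As ratios of TPM within a pool, Mt1 stood 24.2 times above Mt2 in pool 1 and 20.8 times in pool 2 (22.5 ± 2.44, SD, n = 2). It stood 9.62 times above Mt3 in pool 1 and 11.5 times in pool 2. Mt3 stood 2.52 times above Mt2 in pool 1 and 1.81 times in pool 2.

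The reads behind these levels could be told apart between the metallothioneins. The longest identical run was 20 bases between Mt1 and Mt2, 27 between Mt1 and Mt3, and 20 between Mt2 and Mt3. In a search at 95% identity over 100 bases, no other gene matched Mt1 or Mt3, and Mt2 matched 1 gene, Gm45774, on the opposite strand. No source used here says whether counting used strand, so reads of a gene and of its antisense partner cannot be told apart.

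The length used to make TPM matters for messages this short. The deposited effective length was the transcript length minus 99 bases, which left 441 bases for Mt1, 457 for Mt2 and 439 for Mt3. In the GENCODE M21 models, the end of the TATAAA word lies 134 bases into the 549-base transcript of Mt1, 95 bases into the 511-base one of Mt2 and 112 bases into the 536-base one of Mt3. As background, transcription driven by such a word starts downstream of it.

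Counting only the bases after TATAAA would raise the level per read by a factor of 1.40 for Mt1, 1.44 for Mt2 and 1.35 for Mt3, before rescaling to the fixed total. Composition would hardly move, at 87.8% Mt1, 4.06% Mt2 and 8.13% Mt3 as means over the pools. This alternative was chosen after seeing the data, and no source used here gives where the models of the authors' older annotation start.

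Transcript use could be read for few of these genes. In the deposited tables Mt1, Mt2, Mt3, Mt4 and Slc30a10 have 1 annotated transcript each, although GENCODE M21 lists 3 for Mt1, 2 for Mt2 and 3 for Mt3. All reads of Slc30a1 were given to the first of its 2 transcripts, and both reads of Slc30a3 to 1 of its 6.

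For Mtf1 the order of transcripts depended on the scale. The short retained-intron transcript (781 bases) took 81.1% of the gene's TPM in pool 1 and 83.2% in pool 2 (82.2% ± 1.44, SD, n = 2), but only 28.0% and 30.9% of its expected counts, which were 8.20 and 12.24 reads. The full protein-coding transcript (7631 bases) took 72.0% and 69.1% of the counts. The gene 1110065P20Rik overlaps Mtf1 on the opposite strand with 122.74 and 114.42 expected counts, more than Mtf1 itself. Mtf1 reads therefore cannot be told apart from antisense reads, nor can those of Slc30a10, which overlaps Gm2061 (8 and 0 counts). The same limit holds for Slc30a1, which overlaps 1700034H15Rik on the opposite strand (0 and 1 counts).

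Between the pools, every gene of the group with enough reads for a ratio was higher in pool 2 with TMM scaling (trimmed mean of M values, which sets the bulk of genes level), and this ordering turned for Mt1, Mt2, Mt3, Mtf1 and Slc30a10, though not for Slc30a1, when counts were scaled to the spike-in RNA. Ratios were taken for genes with at least 10 counts in total, which 6 of the 8 genes passed; Slc30a3 and Mt4 did not. The median log2 ratio of the 6, pool 2 over pool 1, was 0.47, against -0.01 for all 14495 genes with a ratio. A ratio above 0 was found for 49.7% of those genes. As the group was chosen with this contrast known, nothing is read from its count.

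Mt1 was 1.37-fold higher in pool 2, a log2 ratio of 0.46 (95% exact interval 0.45 to 0.47, counting error only), with TMM scaling, and -0.31 with spike-in scaling. Mt2 was 1.60-fold higher, a log2 ratio of 0.68 (0.64 to 0.72), and -0.09 with spike-ins. Mt3 was 1.15-fold higher, 0.20 (0.18 to 0.23), and -0.57 with spike-ins. The order Mt2, Mt1, Mt3 does not depend on scaling, because a scaling moves every gene by the same amount.

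Spike-ins took 0.211% of the reads of pool 1 and 0.411% of those of pool 2, and scaling to them put the median gene at -0.78. Set against the median gene, the log2 ratio was 0.46 higher for Mt1, 0.69 for Mt2 and 0.21 for Mt3 in TMM-scaled counts. On the log2(TPM + 1) scale, where the median of detected genes was 0.24, the ratios were 0.73, 0.95 and 0.48.

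Well-counted genes give a frame for these sizes. Among 1986 genes with a mean of at least 1000 counts, a floor well under the means of Mt1 (248205), Mt3 (23264) and Mt2 (11650), the median log2 ratio was -0.08 and the quartiles were -0.35 and 0.21. The ratio was above that of Mt2 for 5.69% of them, above that of Mt1 for 12.1% and above that of Mt3 for 25.0%. The ratios of Mt1 and Mt2 thus lay beyond the upper quartile of well-counted genes and that of Mt3 just under it.

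Slc30a1 was the 1 gene of the group past 2-fold, 3.04-fold higher in pool 2 (log2 ratio 1.60, 1.18 to 2.04). With spike-in scaling its ratio was 0.83, in the same direction. Past 2-fold higher in pool 2 were 16.5% of all genes with a ratio, and past 2-fold higher in pool 1 were 15.6%, where the group had 0. Mtf1 had a log2 ratio of 0.41 (-0.32 to 1.15) and Slc30a10 one of 0.49 (-0.61 to 1.63), so for both the counting interval spans 0.

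**Figure D2:**
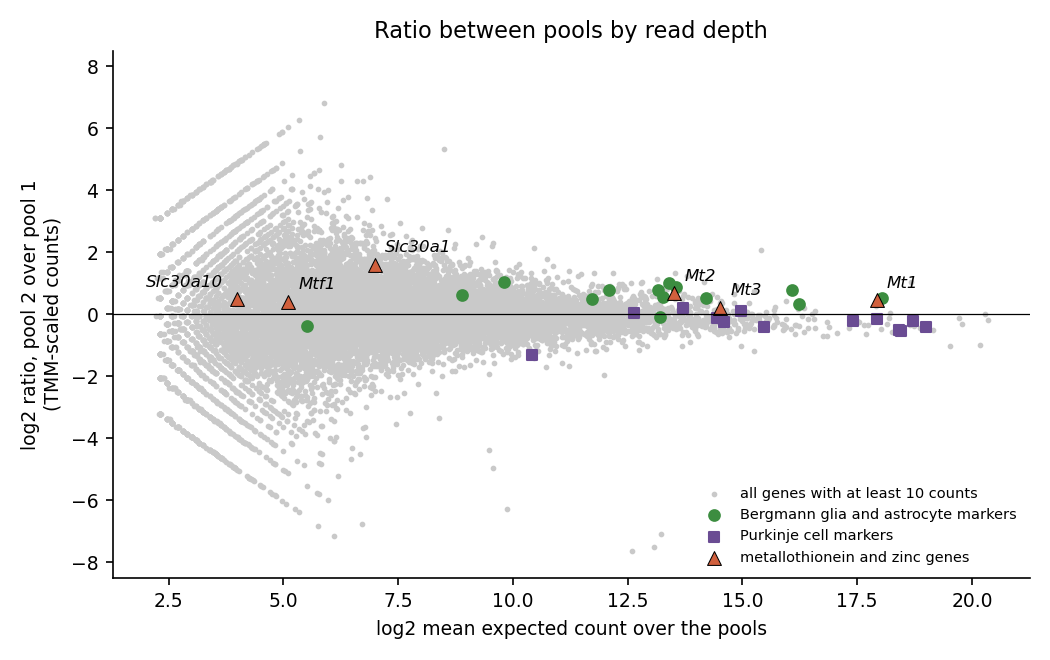
Log2 ratio of TMM-scaled counts, pool 2 over pool 1, against the log2 mean expected count, with a grey point for each gene of at least 10 counts in total that has reads in both pools. Triangles mark the metallothionein and zinc genes, circles the Bergmann glia and astrocyte markers, and squares the Purkinje cell markers; Mt1 and Mt2 lie among the circles, at ratios of 0.46 and 0.68.

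With TMM scaling the glial markers stood higher in pool 2 (median log2 ratio 0.60), and with spike-in scaling lower (-0.17), as the metallothioneins did. With TMM scaling the list had 12 of 14 above 0, against 49.7% of all genes with a ratio. It had 2 of 14 past 2-fold higher in pool 2 (Sox9 and Hepacam), against 16.5% of all genes with a ratio. Of the 14, 11 had a ratio above that of Mt1, 6 above that of Mt2 and 12 above that of Mt3. Slc1a3, the glial glutamate transporter of Bergmann glia, had 1310 TPM in pool 1 against 2298 TPM in pool 2 (log2 ratio 0.54). Gja1, the gap junction protein connexin 43, had 401 and 842 (0.79), Sparcl1, a secreted matrix protein, 548 and 825 (0.32), and S100b, a calcium-binding protein, 271 and 469 (0.52).

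The Purkinje list lay on the other side under TMM scaling, with a median log2 ratio of -0.21 and 10 of 13 below 0. Past 2-fold higher in pool 1 was 1 of them (Slc1a6), against 15.6% of all genes with a ratio. Gng13, a G protein gamma subunit, had a ratio of -0.21, Pcp4, a calmodulin-binding peptide, -0.41, Pcp2, a regulator of G protein signalling, -0.15, and Calb1, the calcium buffer calbindin, -0.50. The red blood cell list had a median of -7.30. The part of any of these lists in the metallothionein ratios was not tested.

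By closeness of log2(TPM + 1) over the 2 pools, a likeness that 2 values define only loosely, the genes nearest to Mt2 were Gja1 (distance 0.26), Sparcl1 (0.26) and Cst3 (0.30). The first and second of these belong to the glial list. The genes nearest to Mt1 were Dbi (0.11), Pcp2 (0.52) and Actb (0.57), and those nearest to Mt3 were Rpl32 (0.04), Cbx3 (0.09) and Ndufa12 (0.17). Dbi encodes an acyl-CoA-binding protein, Pcp2 is a Purkinje marker and Rpl32 a ribosomal protein.

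The cluster on chromosome 8 did not share 1 ratio with its neighbours. From Mt4 to Mt1 the gaps between genes were 13.6, 18.5 and 5.51 kb. Bbs2, a ciliary trafficking gene 38.3 kb before Mt4, had 134 and 396 expected counts (log2 ratio 1.50), and Nup93, a nuclear pore gene 34.2 kb after Mt1, had 250 and 92 (-1.50). Both flanking genes had ratios farther from 0 than the metallothioneins, at far fewer reads, and both were chosen by position.

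**Figure D3:**
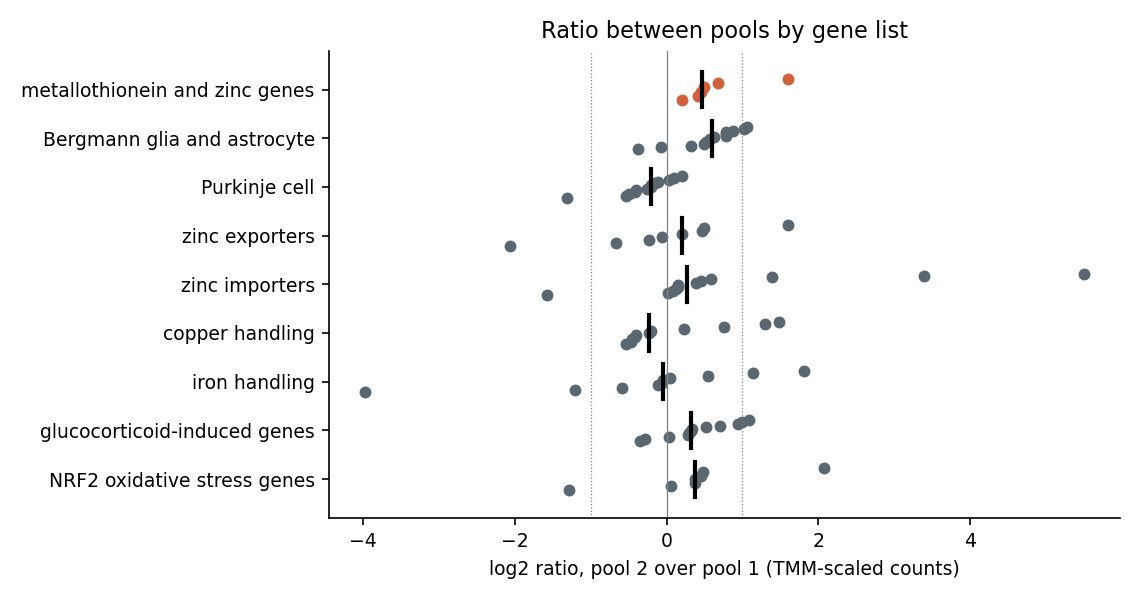
Log2 ratio of TMM-scaled counts, pool 2 over pool 1, with a point per gene that has reads in both pools and 10 or more in total, by list; the black bar is the list's median, which also counts genes with reads in 1 pool, and dotted lines mark 2-fold. The metallothionein and zinc genes have a median of 0.47 and the glial markers 0.60, while the Purkinje markers have -0.21.

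Of 25 zinc transporter genes of both directions, 9 reached a TPM of 1 in both pools, a share near the 30.3% of nuclear protein-coding genes at that level. Among 11 exporters, 4 did so and none was a chosen gene. Slc30a9, reported to act in mitochondria, was the highest, with 5.51 TPM in pool 1 against 4.36 TPM in pool 2 (4.94 ± 0.813, SD, n = 2). Slc30a5, a transporter of the secretory pathway, had 2.03 and 2.82, its partner Slc30a6 had 1.04 and 1.21, and Slc30a4, of vesicles, had 1.17 and 1.97. Slc30a1 reached that level in pool 2 alone, at 1.07.

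Among 14 importers 5 did so, and 1 stood far above all other transporters. Slc39a1, a zinc importer of the plasma membrane, had 75.3 TPM in pool 1 against 137 TPM in pool 2 (106 ± 43.4, SD, n = 2), from 6923 and 10822 expected counts. Its log2 ratio with TMM scaling was 0.59 (0.54 to 0.63), between those of Mt1 and Mt2. The importers as a list summed to 92.4 TPM in pool 1 and 158 in pool 2.

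The next importers were far lower. Slc39a10 had 4.29 TPM in pool 1 against 3.25 TPM in pool 2 (3.77 ± 0.735, SD, n = 2), although its counts were 417 and 570. Slc39a12, an importer known from brain, had 2.65 and 4.34 (3.50 ± 1.20). Slc39a7, which releases zinc from the endoplasmic reticulum, had 2.98 and 4.00 (3.49 ± 0.721), and Slc39a6 had 2.56 and 3.26. For Slc39a10 the TPM and the counts pointed in opposite directions between pools.

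**Figure D4:**
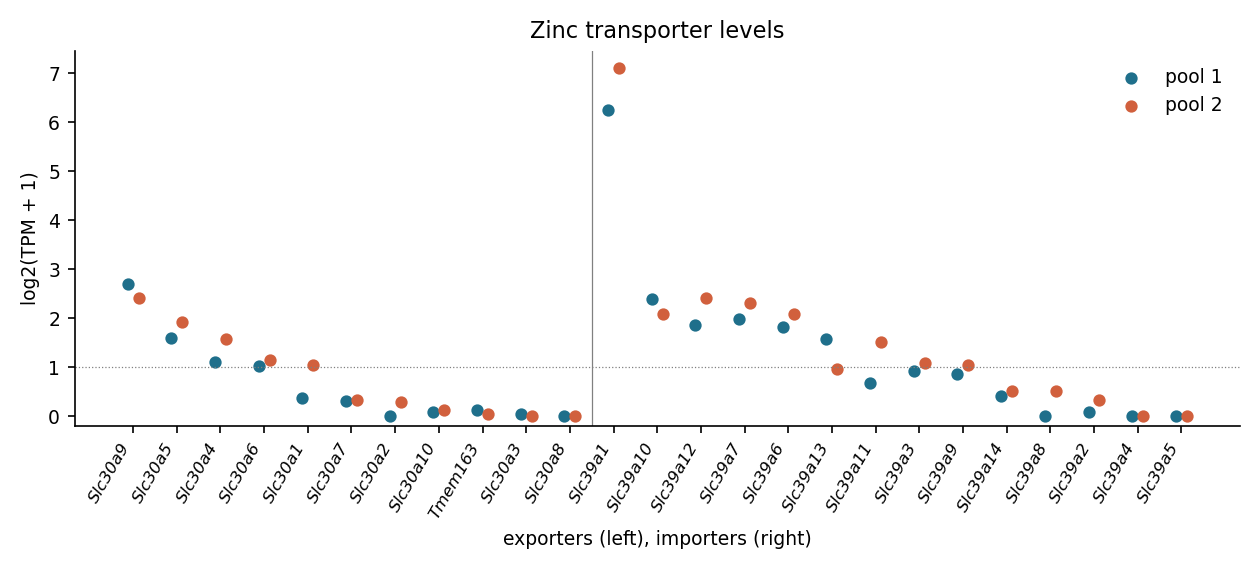
Level of each zinc exporter (left of the line) and importer (right) as log2(TPM + 1), ordered by mean TPM, with a point for each pool; the dotted line is a TPM of 1. Slc39a1, at a TPM of 75.3 and 137, stands above all others.

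Of the exporters, 9 of 11 had enough reads for a ratio, and 2 were past 2-fold higher in pool 2 (Slc30a1 and Slc30a2) and 1 higher in pool 1 (Tmem163), with a list median of 0.20 under TMM scaling and -0.57 under spike-in scaling. Of the importers, 12 of 14 did, and 3 were past 2-fold higher in pool 2 (Slc39a11, Slc39a8 and Slc39a2) and 1 higher in pool 1 (Slc39a13), with a median of 0.27 under TMM scaling and -0.50 under spike-in scaling. Among all genes with a ratio, 16.5% were past 2-fold higher in pool 2 and 15.6% higher in pool 1, so with so few genes these counts lie near the background. Without the chosen genes, the median of both lists together was 0.15 under TMM scaling, against -0.01 for all genes. The genes past 2-fold, which are named here after their values were seen, are thinly read: Slc30a2 had 0 and 24 counts, Slc39a8 1 and 47, and Slc39a11 62 and 169.

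Lists of genes for copper and iron were set beside those for zinc. For copper, 8 of 11 genes reached a TPM of 1 in both pools. Sod1, the copper and zinc superoxide dismutase, had 935 TPM in pool 1 against 977 TPM in pool 2, Cox17, the copper chaperone of cytochrome oxidase, 746 and 655, and Atox1, a cytosolic copper chaperone, 474 and 396. Commd1, which takes part in copper transporter trafficking, had 21.3 and 28.2. The list median was -0.23, with 2 of 11 past 2-fold higher in pool 2 (Sco2 and Atp7a) and 0 in pool 1. Among all genes with a ratio, these shares were 16.5% and 15.6%.

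For iron, 6 of 11 genes reached that level, with a median ratio of -0.05. Past 2-fold, 2 were higher in pool 2 and 2 in pool 1, against 16.5% and 15.6% of all genes with a ratio. Fth1, the ferritin heavy chain, had 857 TPM in pool 1 against 691 TPM in pool 2, and Ftl1, the light chain, 107 and 115. The RNA-binding proteins Pcbp2 and Pcbp1, which also carry iron to ferritin, had 70.8 and 88.1, and 46.1 and 51.7. With TMM scaling the copper median was thus -0.23, and the iron median lay near the -0.01 of all genes. The metallothionein ratios lay above 0.

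Genes reported elsewhere to be regulated by MTF1 were listed without the chosen genes. The list holds at least 1 repressed gene, so no shared direction was to be looked for, and the part of MTF1 was not tested. Of 6 such genes, 3 reached a TPM of 1 in both pools, and the median log2 ratio of the 5 with enough reads was 0.06. Past 2-fold, 1 was higher in pool 2 (Csrp1, with 10 and 22 counts) and 0 in pool 1, against 16.5% and 15.6% of all genes with a ratio. Selenow, a small selenoprotein, had 4314 TPM in pool 1 against 3823 TPM in pool 2 and a log2 ratio of -0.45. Gclc, the catalytic subunit of glutathione synthesis, had 3.78 and 4.77 (0.06), and Slc39a10, an importer repressed through MTF1, had a ratio of 0.39.

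Glucocorticoids and oxidative stress are also known to induce Mt1 and Mt2, and lists of genes of each were set beside them. Of 12 genes induced by glucocorticoids, 7 reached a TPM of 1 in both pools, and the median log2 ratio was 0.32. Past 2-fold higher in pool 2 were 2 (Klf9 and Nfkbia), and 0 in pool 1, against 16.5% and 15.6% of all genes with a ratio. Tsc22d3, an anti-inflammatory leucine zipper, had 35.0 TPM in pool 1 against 51.8 TPM in pool 2 (0.28), Errfi1, a feedback inhibitor of EGF receptors, 3.21 and 4.84 (0.32), Sgk1, a kinase, 3.19 and 4.11 (-0.28), and Cdkn1a, a cell cycle inhibitor, 2.48 and 4.35 (0.33). For Sgk1 the TPM and the counts (303 and 260) pointed in opposite directions between pools. Fkbp5, another classical target, had only 5 and 10 counts.

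Of 8 oxidative stress genes under the factor NRF2, 4 reached a TPM of 1 in both pools, with a median of 0.37. Past 2-fold, 1 was higher in pool 2 (Hmox1, 16 and 70 counts) and 1 in pool 1 (Slc7a11). Among all genes with a ratio, these shares were 16.5% and 15.6%. Nqo1, a quinone reductase, had 10.3 TPM in pool 1 against 17.3 TPM in pool 2 (0.48), Srxn1, a sulfiredoxin, 3.16 and 4.94 (0.37), and Gclm, a glutathione synthesis subunit, 2.01 and 3.55 (0.45). With spike-in scaling, which puts the median gene at -0.78, all of these list medians would lie below 0. The part of these pathways in the metallothionein ratios was not tested.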

How the data were processed

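RNA of the 2 pools was amplified as complementary DNA (SMARTer Ultra Low kit) and read on Illumina HiSeq machines, per the labels. The authors' tables were made per library on mouse build mm10 and GENCODE M4, as a deposited text file states, with columns named as RSEM names them. No source used here names the aligner or the quantifier. Per the file headers, the deposited tables hold expected counts, TPM and FPKM (the last, and posterior mean values, used only as alternatives), and the deposited transcript tables give each transcript's percent of the TPM of its gene. A reference made from C57BL/6 may favour that allele in reads of the cross, which was not tested.

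GENCODE M21, a later release on that build, gave symbols and coordinates and matched 42462 of 43346 Ensembl rows. Rows with numeric identifiers (0.000412% and 0.000194% of counts) and spike-ins were left out of library sizes. Totals of 31503819 and 28709397 expected counts limit precision. For ratios the expected counts were rounded to whole numbers and scaled by TMM factors of edgeR 4.0.16 over genes with at least 10 counts in total; exact 95% intervals (Clopper-Pearson, scipy 1.17.1) cover counting error only. The scaling step was tested on simulated data in which a minority of genes changed, as many up as down. That test does not bear on a shift of most genes between pools. A gene was called detected at a TPM of at least 1, and past 2-fold by the ratio alone, since 1 group of 2 pools allows no test between conditions. Shared sequence was searched with BLAST 2.17.0, and promoter windows were those of RefSeq (GRCm38.p6), with a window for 8 of 8 chosen genes. The alternatives were other scalings (DESeq2 1.42.0 size factors, total counts, spike-in totals), other units and pseudocounts, other thresholds and each pool alone.

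The genes and all lists were chosen with earlier results of these data known. The rule for named genes took all 8 chosen genes, every zinc transporter detected in both pools, the 4 highest genes of each other list at that level in at least 1 pool, and the 3 nuclear protein-coding genes nearest to Mt1, Mt2 and Mt3. For cell type lists other than glia and Purkinje cells only list values are given. Most other genes named are said to be chosen by position or stand as the few past 2-fold. Outside the rule, Gfap and Fkbp5 are named as low members of their lists. Antisense partners are named for their overlap or shared sequence. Protein sequences were not used here.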

Additional observations from a re-analysis of the deposited data

How the results depend on the processing

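Over 28 results, 138 alternatives were computed. A ratio was held to have moved when it left its own counting interval, which is far narrower for Mt1 than for Slc30a1. A level or share was held to have moved at 1 SD or more, and a count at over 1.5 times. By that measure 107 stayed. Many of them could not have moved. With 2 pools, leaving 1 out cannot shift a level or share by 1 SD, and a gene with 1 annotated transcript has a fixed transcript share. The sign turned for 5 genes and the summed metallothioneins when counts were scaled to spike-in totals, with a log2 ratio, pool 2 over pool 1, of -0.31 for Mt1, -0.09 for Mt2, -0.57 for Mt3 and -0.33 for the sum, against 0.45 for the sum with TMM. Mtf1 (-0.37) and Slc30a10 (-0.28) turned too, although their counting intervals with TMM span 0. The sum was 0.64 with total counts, 0.72 as TPM with a pseudocount of 1 or 0.1, and 0.45 with no filter. The 9 zinc transporters detected in both pools became 16 at a TPM of at least 0.1, 1 at 5, and 17 at 10 counts in each pool. Genes past 2-fold higher in pool 2 (2386) became 1168 with spike-ins and 3736 with no filter, and those higher in pool 1 (2265) became 5634 and 4246; why the sets differ beyond the shift of scale or the added low genes was not tested. Slc30a1 was 0.83 with spike-ins and 0.68 on the log2(TPM + 1) scale, and so not past 2-fold under either. Posterior means put Slc30a3 at a TPM of 0.31 and Mt4 at 0.09, where the reported means are 0.015 and 0, and the share of Mtf1 in its retained-intron transcript was 29.5% by counts. No ratio was possible for Slc30a3 or Mt4, nor a transcript share for Slc30a3, with 2 counts or fewer. No paired analysis was possible because both pools belong to 1 group. Depth limits what can be said of Mtf1, Slc30a10, Slc30a3 and Mt4, which had under 40 counts in each pool.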
